A study of Mus musculus with 10 samples.

Results

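The epithelial sodium channel (ENaC) and the genes through which aldosterone acts on it were followed in obstructed and sham-operated mouse kidneys. The set held 9 of the 13920 genes in the gene table, taken by symbol rather than by value. They were the channel subunits Scnn1a, Scnn1b and Scnn1g, the mineralocorticoid receptor Nr3c2 with its companion enzyme Hsd11b2, the kinase Sgk1, the ubiquitin ligase Nedd4l, and the serine proteases Prss8 and Klk1. Left kidneys of C57BL/6 mice were taken whole after unilateral ureteral obstruction (UUO), in which 1 ureter is closed off, or after sham surgery, with the treatment given as none in both groups. Each group had 5 libraries, numbered here as in the sample titles. Age, sex and time since surgery are not given in the labels. Whether the 5 libraries of a group came from separate animals is not stated, so the p-values measure the spread between these libraries, which may be technical.

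ENaC is the channel through which principal cells of the connecting tubule and collecting duct take up sodium from the urine, and its 3 subunits are needed together for full activity. Aldosterone binds the mineralocorticoid receptor, which raises transcription of the kinase Sgk1, and Sgk1 phosphorylates Nedd4l so that this ligase removes less channel from the membrane. Serine proteases open the channel further by cutting the extracellular loops of its alpha and gamma subunits, and Hsd11b2 inactivates glucocorticoids that would otherwise occupy the receptor.

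Levels are FPKM, sequenced fragments relative to the length of a gene's exons and to the size of the library, as the authors deposited them. The test across all genes was limma on log2(FPKM + 1), with Benjamini-Hochberg adjustment over the 13202 genes that reached 0.5 FPKM in at least 5 libraries, and genes with an adjusted p below 0.05 are called. All 9 members passed that filter. Folds are ratios of mean FPKM, and log2 differences are UUO minus sham on the log2(FPKM + 1) scale, which understates the change of genes at low levels. The kidneys differed widely: 74.7% of the genes tested were called, 58.5% as higher and 16.1% as lower in UUO, and the median gene had a log2 difference of 0.40. With the libraries scaled by the median of ratios, which brings that median to 0.01, 34.8% were higher and 33.7% lower. The read depth behind each library cannot be given, since the files hold no counts.

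The library Sham 4 stood apart from the other sham libraries. It was the highest of the 5 sham libraries in 50.2% of the genes tested and the lowest in 21.1%, and it was the highest in 7 of 8 principal cell markers. Among the members it was the highest for Nr3c2 and Sgk1 and the lowest for 3 others, Scnn1g, Prss8 and Klk1. For the results below that Sham 4 moved most, values without it are given as well.

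In UUO, 4 members fell and 1 rose. Klk1 fell 5.33-fold, Prss8 1.67-fold, Scnn1a 1.65-fold and Scnn1g 1.37-fold, while Nedd4l rose 1.17-fold on the deposited scale and was lower on 2 of the 3 other scales tried. Scnn1b, Nr3c2, Sgk1 and Hsd11b2 did not pass the test. The share of members that fell, 4 of 9, stood beside 16.1% of all genes tested, and the share that rose, 1 of 9, beside 58.5%. The median log2 difference of the members was -0.27, against 0.40 for the median gene. The sham and UUO ranges did not overlap for 3 members, Scnn1a, Prss8 and Klk1, all lower in UUO, where 59.7% of all genes tested had ranges that did not overlap in either direction and 12.2% had them with UUO lower. In whole-organ RNA, fewer cells of a type and less RNA per cell cannot be told apart.

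**Figure D1:**
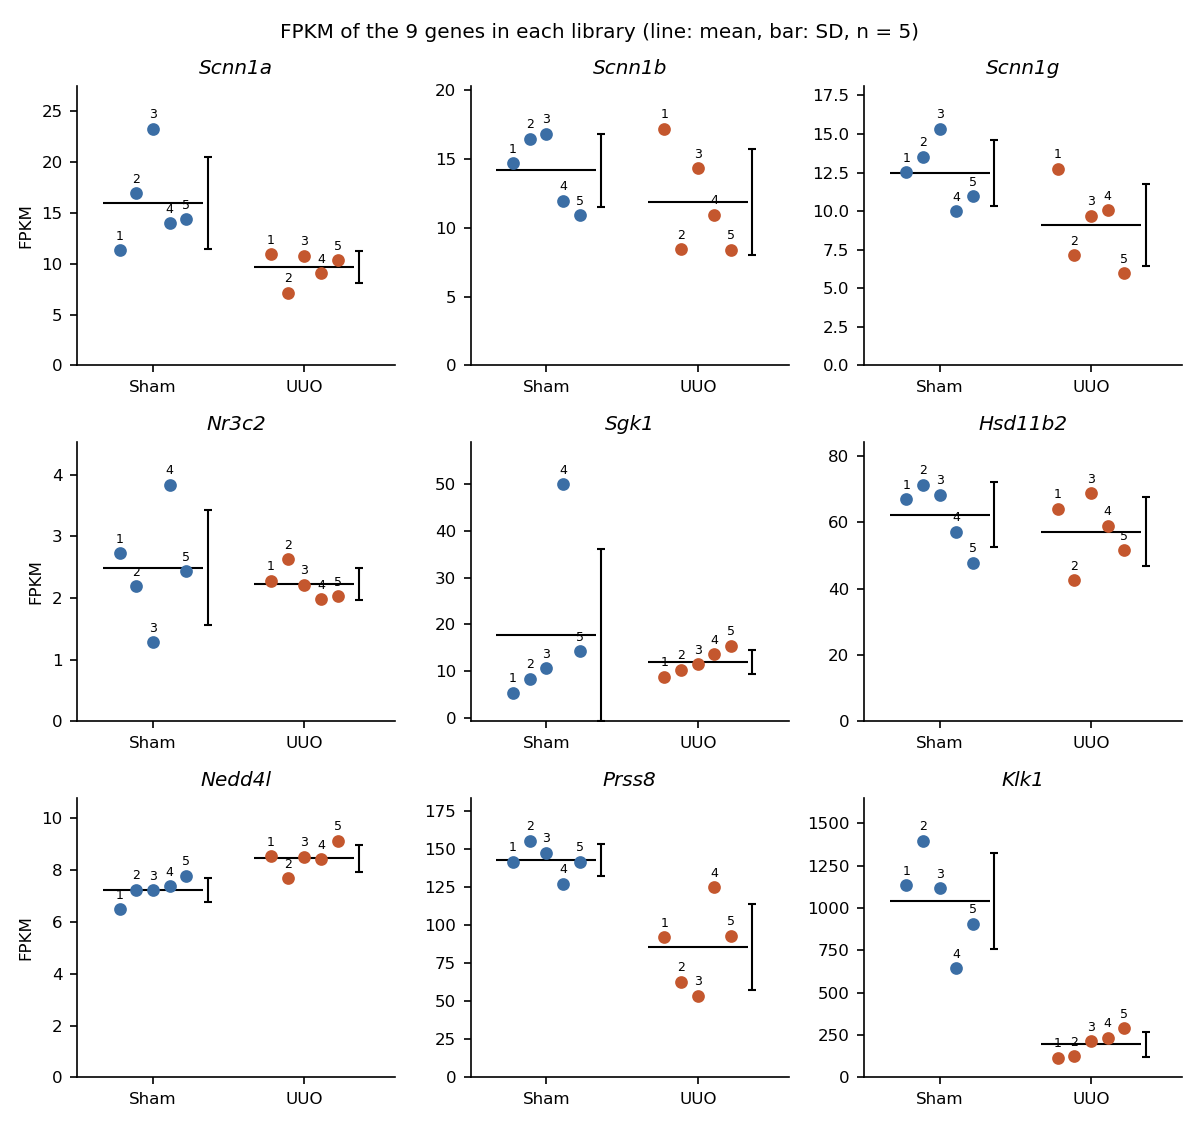
FPKM of each of the 9 genes (vertical axis) in the 5 sham and 5 UUO libraries (points, numbered by library), with the mean (line) and the standard deviation (bar, n = 5). The ranges are separate for Scnn1a, Prss8 and Klk1, and the Sgk1 level of 49.99 FPKM in Sham 4 lies far above the other 9 libraries.

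Scnn1a encodes the alpha subunit, which forms the core of the channel and without which almost no current is carried. The gene lies on the plus strand of chromosome 6 at chr6:125320659-125344943 of GRCm38. Its level in Sham 1 to 5 was 11.3, 16.95, 23.3, 14.0 and 14.4 FPKM, and in UUO 1 to 5 it was 10.9, 7.15, 10.8, 9.06 and 10.4 FPKM. Every UUO library was below every sham library, but the lowest sham library and the highest UUO library were close. The mean fell from 15.98 ± 4.55 to 9.66 ± 1.59 FPKM (SD, n = 5 each), a log2 difference of -0.65 (SE 0.17, limma adjusted p = 0.00590, exact permutation p = 0.00794, two-sided, the smallest that relabelling 5 against 5 libraries can give). The spread was wider in sham, where the highest library was 2.06 times the lowest, than in UUO, where it was 1.53 times.

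Scnn1b and Scnn1g encode the beta and gamma subunits and are neighbours on chromosome 7, with Scnn1g at chr7:121734479-121768475 and Scnn1b at chr7:121865038-121918514, both on the plus strand and 96562 bases apart. Scnn1b stood at 14.7, 16.5, 16.8, 11.9 and 10.9 FPKM in Sham 1 to 5 and at 17.2, 8.46, 14.3, 10.9 and 8.42 FPKM in UUO 1 to 5. The groups overlapped: UUO 2 and UUO 5 lay below all sham libraries, UUO 3 and UUO 4 among them and UUO 1 above them all. The log2 difference of Scnn1b was -0.27, with a 95% interval from -0.71 to 0.17 (limma adjusted p = 0.237, exact permutation p = 0.246), so a fall of the size seen in Scnn1a lies inside the interval. Scnn1g stood at 12.5, 13.5, 15.3, 9.98 and 10.97 FPKM in Sham 1 to 5 and at 12.8, 7.13, 9.71, 10.1 and 6.00 FPKM in UUO 1 to 5. UUO 2, 3 and 5 lay below all sham libraries, while UUO 1 and UUO 4 lay among them. The mean of Scnn1g fell from 12.5 ± 2.12 to 9.13 ± 2.66 FPKM (SD, n = 5 each), a log2 difference of -0.44 (SE 0.18, limma adjusted p = 0.0459). The call of Scnn1g was marginal: the exact permutation p was 0.0635, and without 1 library the limma adjusted p ran from 0.0112 to 0.108, above 0.05 without Sham 1, 2, 3 or 5 and without UUO 2, 3 or 5.

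The beta and gamma subunits had similar patterns over the libraries. By root-mean-square difference of centred log2(FPKM + 1) over the 10 libraries, Scnn1b was the second nearest of 12061 genes to Scnn1g, at 0.152, after Cd164l2 at 0.149 and ahead of Tmem52b at 0.169. The nearest genes to Scnn1a were Ptgfr at 0.191, Ifrd2 at 0.218 and Mettl8 at 0.222, and neither of the other subunits was among the closest 3. Ratios within a library do not depend on how libraries are scaled, and 5 were tested by exact permutation with adjustment over the 5. The ratio of Scnn1a to Scnn1b had a geometric mean of 1.11 in sham and 0.838 in UUO (exact permutation p = 0.111, adjusted p = 0.278). The ratio of Scnn1a to Scnn1g went from 1.26 to 1.08 (exact permutation p = 0.341, adjusted p = 0.569), and that of Scnn1b to Scnn1g from 1.13 to 1.29 (exact permutation p = 0.0952, adjusted p = 0.278). None of these ratios passed the test, so a difference between the subunits in their response was not shown. In sham the mean levels of the 3 subunits, per kilobase of merged exons, ran from 12.5 FPKM for Scnn1g through 14.2 for Scnn1b to 15.98 for Scnn1a, each within 1 SD of its neighbour.

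Nr3c2 encodes the mineralocorticoid receptor, the transcription factor that aldosterone activates, and lies at chr8:76899442-77245012 on the plus strand. It was the lowest of the members in FPKM, with 2.73, 2.19, 1.29, 3.84 and 2.43 FPKM in Sham 1 to 5 and 2.28, 2.62, 2.22, 1.98 and 2.03 FPKM in UUO 1 to 5. All 5 UUO libraries lay inside the sham range, whose 2 ends were Sham 3 and Sham 4. The log2 difference was -0.08 (95% interval -0.45 to 0.29, limma adjusted p = 0.687, exact permutation p = 0.667), and without Sham 4 it was 0.05. The coefficient of variation of Nr3c2 was 37.1% in sham and 11.5% in UUO.

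Hsd11b2 encodes the dehydrogenase that turns corticosterone, the main glucocorticoid of mice, into an inactive form, and it lies at chr8:105518755-105523988 on the plus strand. Its level in Sham 1 to 5 was 66.9, 71.3, 68.2, 57.1 and 47.8 FPKM, and in UUO 1 to 5 it was 64.1, 42.4, 68.6, 58.9 and 51.5 FPKM. The groups overlapped, and 4 of 5 UUO libraries were inside the sham range. The mean was 62.3 ± 9.68 in sham and 57.1 ± 10.4 FPKM in UUO (SD, n = 5 each), and the log2 difference was -0.13, between -0.45 and 0.20 at 95% (limma adjusted p = 0.445, exact permutation p = 0.444). The ratio of Hsd11b2 to Nr3c2, 26.2 in sham and 25.4 in UUO as geometric means, was not called either (exact permutation p = 0.889, adjusted p = 0.889 over the 5 ratios). Hsd11b1, which works in the opposite direction and restores active glucocorticoid, fell 2.60-fold from 39.5 ± 11.3 to 15.2 ± 3.92 FPKM (SD, n = 5 each, limma adjusted p = 0.000262).

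Hsd11b2 and Scnn1g were set beside genes of the principal cell marker list, 2 water channels that fell and 2 transcription factors that rose as deposited. Which cells the RNA of these genes came from was not tested. Aqp2, the vasopressin-regulated water channel, fell 8.06-fold, from a mean of 141 to 17.5 FPKM, with 399 FPKM in Sham 4 and at most 90.6 FPKM in the other sham libraries. Without Sham 4 the sham mean was 76.4 ± 13.8 FPKM (SD, n = 4) and the fall 4.37-fold. The ratios of this paragraph were chosen after the values were seen and are given as a description. Aqp2 and Aqp3 had fallen and Gata3 and Tfcp2l1 had risen, so the choice of the second gene largely set the direction of each ratio. The ratio of Hsd11b2 to Aqp2 ran from 0.143 in Sham 4 (0.527 without it) to 1.08 over the sham libraries. Over the UUO libraries it ran from 2.18 to 8.73. Against Aqp3, the water exit channel, the same ratio ran from 0.646 to 1.06 in sham and from 1.77 to 4.25 in UUO. The ratio of Scnn1g to Aqp3 ran from 0.113 to 0.225 in sham and from 0.302 to 0.846 in UUO. Each of these 3 ratios was higher in every UUO library than in any sham library. Against the transcription factors the direction was the opposite. The ratio of Hsd11b2 to Gata3 ran from 5.30 in Sham 4 (12.4 without it) to 18.1 in sham and from 4.93 to 8.99 in UUO, and that of Scnn1g to Gata3 from 0.926 in Sham 4 (2.84 without it) to 3.85 in sham and from 0.758 to 1.05 in UUO. The ratio to Tfcp2l1 ran from 1.83 to 2.53 in sham and from 1.29 to 1.76 in UUO for Hsd11b2, and from 0.366 to 0.568 in sham and from 0.154 to 0.350 in UUO for Scnn1g. The ranges of the Gata3 ratios overlapped only through Sham 4, and those of the Tfcp2l1 ratios did not overlap. Among single genes tested, 59.7% had sham and UUO ranges that did not overlap.

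Sgk1 encodes the serum- and glucocorticoid-regulated kinase that links the receptor to the channel, and its gene spans chr10:21882184-21999903 on the plus strand. It was at 5.45, 8.42, 10.7, 49.99 and 14.2 FPKM in Sham 1 to 5 and at 8.86, 10.3, 11.5, 13.6 and 15.5 FPKM in UUO 1 to 5. Sham 4 was 5.16 times the mean of the other sham libraries, and the remaining 9 libraries ran together from 5.45 to 15.5 FPKM. With all libraries the log2 difference was -0.14 (95% interval -1.15 to 0.86, limma adjusted p = 0.790, exact permutation p = 0.865). Without Sham 4 the sham mean was 9.69 ± 3.70 FPKM (SD, n = 4) and the log2 difference was 0.32 (95% interval -0.21 to 0.86, limma adjusted p = 0.237). The direction of Sgk1 therefore rested on 1 library, and neither fit passed the test. Its ratio to Nedd4l was 6.77 in Sham 4 and ran from 0.840 to 1.83 in the other 9 libraries (geometric means 1.78 and 1.39, exact permutation p = 0.698, adjusted p = 0.873).

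Most of the Sgk1 signal came from the transcript Sgk1-202, which starts 776 bases upstream of Sgk1-201. The 250 bases before each start are shown because steroid receptors are known to act on genes through such DNA elements, and because the 2 starts differ in it. Sequences are from RefSeq, build GRCm38.p6, plus strand, at chr10:21993640-21993889 for Sgk1-202 and chr10:21994416-21994665 for Sgk1-201. Capitals mark a match to the palindromic corticosteroid response element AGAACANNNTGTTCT.
Sgk1-202: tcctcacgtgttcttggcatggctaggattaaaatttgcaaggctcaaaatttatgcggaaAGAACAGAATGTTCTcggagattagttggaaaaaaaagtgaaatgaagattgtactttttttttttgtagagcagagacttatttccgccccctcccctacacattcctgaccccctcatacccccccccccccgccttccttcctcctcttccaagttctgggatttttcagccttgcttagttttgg
Sgk1-201: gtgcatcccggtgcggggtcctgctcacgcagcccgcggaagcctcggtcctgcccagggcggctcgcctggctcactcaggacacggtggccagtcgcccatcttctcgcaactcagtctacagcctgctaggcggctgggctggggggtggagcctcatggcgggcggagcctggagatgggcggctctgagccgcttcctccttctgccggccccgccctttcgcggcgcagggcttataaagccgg
The match lies at chr10:21993701-21993715, from 189 to 175 bases before the Sgk1-202 start. Of 32851 promoter windows of this annotation, each reaching from 250 bases before a gene start to 50 after it, 3 held this palindrome on either strand (0.00913%), and 1 of them was the Sgk1 window. A single arm of it, AGAACA, which the palindrome contains, was found on either strand in 18.97% of the windows. Windows were found for 5 members, 10 windows in all, and the arm was in 3 of these, each an Sgk1 window. The windows of Klk1, Scnn1b, Scnn1g and Nr3c2 held neither motif. A match is a string of letters and not a measured binding site. The stretch before Sgk1-202 had a GC content of 44.8% and that before Sgk1-201 of 70.4%.

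The use of these starts could be read only from the transcript table. Sgk1-202 made up between 90.0% and 95.6% of the listed Sgk1 transcript FPKM in 8 libraries and 72.3% in UUO 2. In UUO 4 it was listed at 0, and Sgk1-201 held 98.2%. In Sham 4 Sgk1-202 (84.7 FPKM) and Sgk1-201 (8.22 FPKM) were each at their highest among the sham libraries, and Sgk1-202 held 90.0%. Whether the choice of start differed in Sham 4 was not tested. The transcripts have 10 exons in common and differ in the other 2 of each.

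Nedd4l encodes the ubiquitin ligase that marks ENaC for removal and lies on the plus strand of chromosome 18. It stood at 6.49, 7.24, 7.22, 7.38 and 7.78 FPKM in Sham 1 to 5 and at 8.52, 7.68, 8.51, 8.42 and 9.14 FPKM in UUO 1 to 5. In UUO, 4 of 5 libraries were above all sham libraries and UUO 2 was just below the highest. The mean rose from 7.22 ± 0.468 to 8.45 ± 0.518 FPKM (SD, n = 5 each), a log2 difference of 0.20 (SE 0.07, limma adjusted p = 0.0195, exact permutation p = 0.0159). This rise was smaller than that of the median gene, by 0.20 on the log2 scale, and Nedd4l was called lower when libraries were scaled by the median of ratios (-0.24, limma adjusted p = 0.0152) or quantile-normalized (-0.20, limma adjusted p = 0.0309). Without Sham 1 it was not called (limma adjusted p = 0.0547). It was the steadiest member, with a coefficient of variation of 6.48% in sham and 6.13% in UUO. Its nearest genes by pattern were Fkbp8 at 0.0543, BC024978 at 0.0599 and Eif2b3 at 0.0604.

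Prss8 encodes prostasin, a membrane-anchored serine protease that brings about ENaC cleavage, and lies at chr7:127925716-127930104 on the minus strand. Its level was 142, 156, 148, 127 and 142 FPKM in Sham 1 to 5 and 92.3, 62.8, 53.8, 125 and 93.3 FPKM in UUO 1 to 5. The sham libraries were close together, and the UUO libraries were spread over 2.33-fold, with UUO 4 only just below Sham 4. The mean fell from 143 ± 10.4 to 85.5 ± 28.3 FPKM (SD, n = 5 each), a log2 difference of -0.80 (SE 0.20, limma adjusted p = 0.00370, exact permutation p = 0.00794). Among the genes nearest to Prss8 were Smim4 at 0.107 and Akr1a1 at 0.110.

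Klk1 encodes tissue kallikrein, a secreted protease of the connecting tubule that releases kinins and has been linked to cleavage of the gamma subunit. It lies at chr7:44225360-44229618 on the plus strand and was the most abundant member in FPKM. Its level was 1135, 1398, 1118, 646 and 908 FPKM in Sham 1 to 5 and 117, 124, 212, 233 and 290 FPKM in UUO 1 to 5. Every UUO library was below every sham library, with Sham 4 the lowest of its group. The mean fell from 1041 ± 281 to 195 ± 73.9 FPKM (SD, n = 5 each), a log2 difference of -2.45 (SE 0.28, limma adjusted p = 1.81e-05, exact permutation p = 0.00794). Klk1 belongs to a cluster of near-identical genes, and how shared reads were divided among them is not known. Of 14 genes of that cluster 7 were listed and 3 were tested: Klk1b5 fell from 5.73 ± 1.19 to 1.46 ± 1.09 FPKM (SD, n = 5 each, limma adjusted p = 0.000627), and Klk1b9 was not called. The nearest genes to Klk1 were Ahcy at 0.310, Agps at 0.367 and Ugt1a7c at 0.372.

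**Figure D2:**
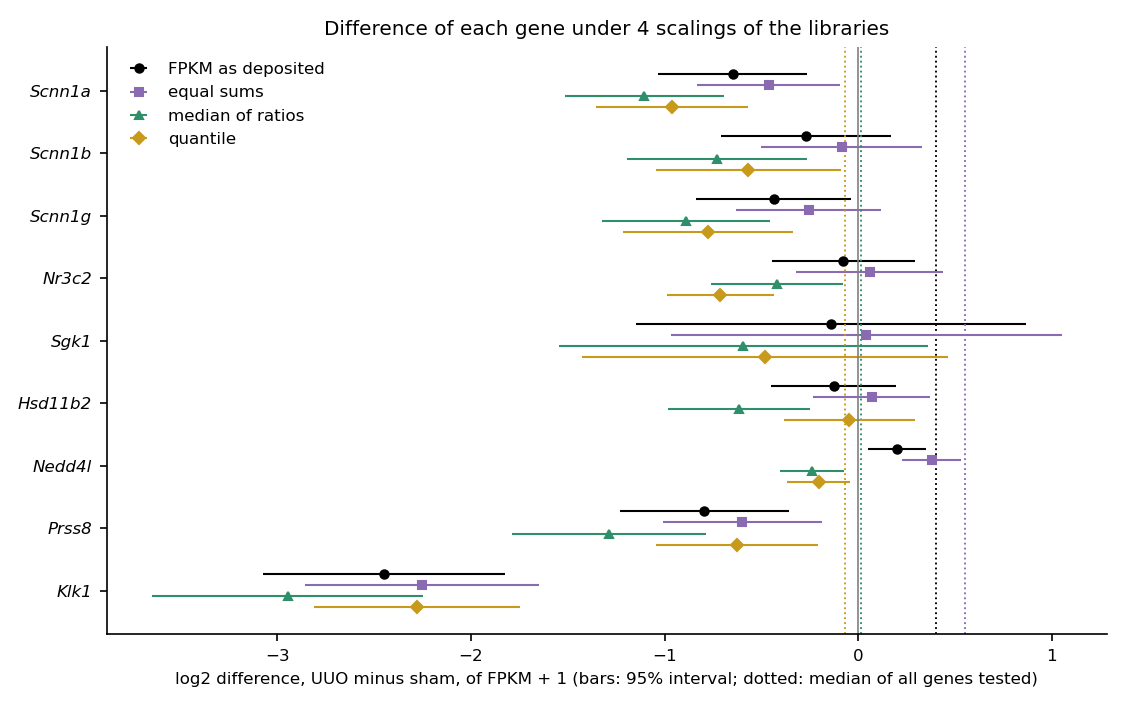
Log2 difference (UUO minus sham, horizontal axis) of each of the 9 genes under 4 scalings of the libraries, with 95% intervals (bars) and the median of all genes tested under the same scaling (dotted line in the same colour). Scnn1a, Prss8 and Klk1 lie below 0 under all 4, while Nedd4l is above 0 as deposited and with equal sums and below 0 with the other scalings.

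How the libraries were set on a common scale moved several members. As deposited 4 members were lower and 1 higher, and with median-of-ratios scaling 8 were lower and 0 higher, beside 33.7% and 34.8% of all genes. With quantile normalization 7 were lower and 0 higher, beside 36.6% and 29.6%. Scnn1b (-0.73, limma adjusted p = 0.00981), Nr3c2 (-0.42, limma adjusted p = 0.0324) and Hsd11b2 (-0.62, limma adjusted p = 0.00673) were then called lower under the median of ratios, whereas Sgk1 was not (-0.59, limma adjusted p = 0.241). With quantile normalization Nr3c2 was at -0.71 (limma adjusted p = 0.000515) and Scnn1b at -0.57 (limma adjusted p = 0.0374), and Hsd11b2 was not called (-0.046, limma adjusted p = 0.806). With all libraries rescaled to equal sums 3 members were lower and 1 higher, beside 11.7% and 67.3% of all genes, and Scnn1g was no longer called (-0.26, limma adjusted p = 0.184). Scnn1a, Prss8 and Klk1 were lower and called under every one of the 18 alternatives tried.

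The transcript table listed 21 transcripts of the members, of which 17 were tested and 3 were called, all lower in UUO, beside 12.2% of all transcripts tested that were lower and 32.2% that were higher. These were Klk1-201 (log2 difference -2.53, limma adjusted p = 7.78e-05), Klk1-203 (-1.22, limma adjusted p = 0.00262) and Scnn1a-205 (-1.06, limma adjusted p = 0.0223), whose call was lost without Sham 2 or Sham 5 (limma adjusted p = 0.0537 for each) and with a pseudocount of 0.1 (-2.58, limma adjusted p = 0.0552). In the annotation Klk1-203 starts its coding sequence further downstream than Klk1-201. It made up 3.22%, 3.88%, 4.805%, 5.45% and 5.73% of the listed Klk1 FPKM in Sham 1 to 5 and 10.5%, 11.5%, 8.10%, 11.3% and 10.3% in UUO 1 to 5. The groups did not overlap, and the mean share went from 4.62% to 10.3%. The share did not pass adjustment over the 14003 shares tested (limma adjusted p = 0.113), of which 0.807% were called in either direction. Of 14 shares of the members tested 0 were called.

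For the other members with several listed transcripts the leading transcript, the one with the highest FPKM, was not the same in all libraries. Nr3c2-203 held at least 99.2% of the listed Nr3c2 FPKM in 7 libraries, and Nr3c2-204 held at least 98.8% in Sham 4, UUO 2 and UUO 3. These transcripts share 7 exons, and their first exons, of 253 and 489 bases, lie before the start codon. Scnn1a-201 was at 99.5% or more in UUO 1, UUO 4 and UUO 5, at 29.9% in UUO 2 and at 22.4% in UUO 3, and between 50.1% and 74.0% in sham, so it led in all 5 sham libraries and lost the lead in 2 UUO libraries. Prss8-202, which lacks 143 bases of the first exon of Prss8-201, was between 1.93% and 7.79% in Sham 4, UUO 1 and UUO 4 and between 28.5% and 58.2% elsewhere. Prss8-201 led in all 5 sham libraries, and Prss8-202 led in UUO 2, 3 and 5, with 58.2%, 54.7% and 51.2%. Nedd4l-201 was at 86.9% in UUO 4 and at most 30.4% in the other libraries. Transcripts this alike are divided by the quantification, and Scnn1b, Scnn1g and Hsd11b2 had 1 listed transcript each.

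**Figure D3:**
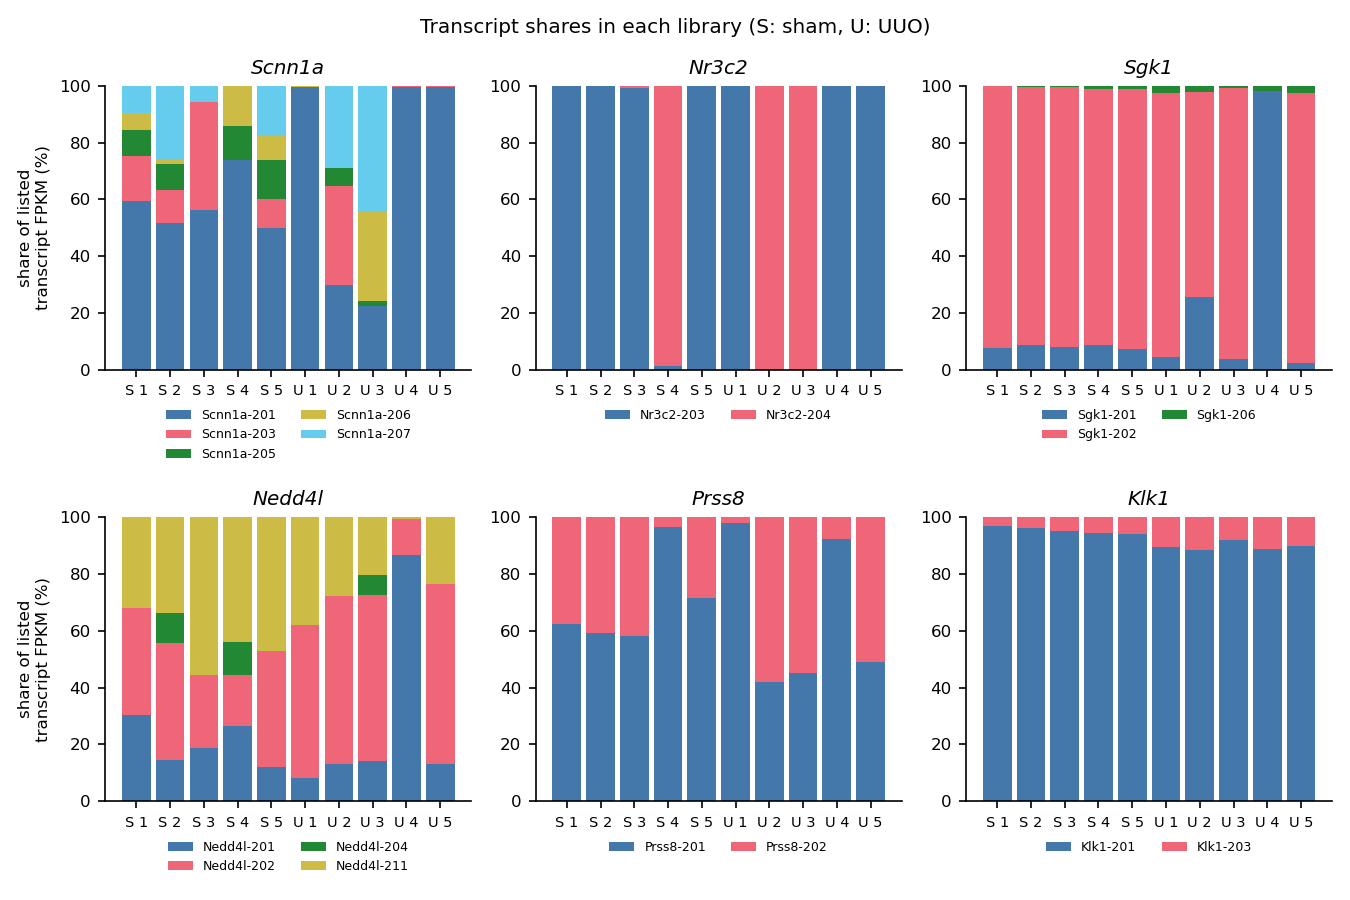
Share of each listed transcript in the summed transcript FPKM of its gene (vertical axis, percent) in each library, for the 6 members with more than 1 listed transcript. The Klk1-203 share is 3.22% to 5.73% in sham and 8.10% to 11.5% in UUO, while the leading transcript changes within both groups for Nr3c2 and Nedd4l and within UUO for Scnn1a, Prss8 and Sgk1.

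Among 10 genes of corticosteroid receptors and steroid handling, 3 rose, 2 fell and 5 were not called, with a median of -0.10, and under median-of-ratios scaling 1 was higher and 6 were lower. This list and those that follow stand beside 58.5% of all genes tested higher and 16.1% lower as deposited, with a median of 0.40. Under median-of-ratios scaling 34.8% of all genes tested were higher and 33.7% lower. Hsp90ab1, a chaperone of unliganded receptors, rose from 317 ± 11.3 to 399 ± 25.9 FPKM (SD, n = 5 each, limma adjusted p = 0.00208) but had a log2 difference of -0.17 under median-of-ratios scaling. The corepressor Nrip1 rose from 3.14 to 6.72 FPKM (limma adjusted p = 0.000121). The glucocorticoid receptor Nr3c1 was at 13.6 ± 2.21 FPKM in sham and 16.8 ± 2.20 in UUO (SD, n = 5 each) and was not called (limma adjusted p = 0.0525).

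The 12 corticosteroid-responsive genes did not move in 1 direction. As deposited 3 rose, 3 fell and 6 were not called, with a median of 0.05. Over all genes tested 58.5% were higher and 16.1% lower, with a median of 0.40. Without Sham 4 the counts of the list were the same and its median was 0.31. Edn1, endothelin 1, which reduces sodium uptake in the collecting duct, rose 30.4-fold from 0.686 ± 0.198 to 20.9 ± 6.12 FPKM (SD, n = 5 each, limma adjusted p = 4.71e-08). Cnksr3, a scaffold that brings Sgk1, Nedd4l and ENaC together, rose from 3.98 ± 0.355 to 9.97 ± 1.13 FPKM, and Rasd1, a dexamethasone-induced Ras protein, from 2.37 ± 1.08 to 12.5 ± 7.40 FPKM (SD, n = 5 each). The genes that fell were Usp2, a deubiquitinase, from 38.9 ± 5.87 to 15.5 ± 6.61 FPKM, Klf9, a hormone-induced transcription factor, from 48.0 ± 4.52 to 29.6 ± 3.84 FPKM, and Ndrg2 from 31.9 ± 3.65 to 18.7 ± 5.41 FPKM. Fkbp5, Tsc22d3, Per1, Zbtb16 and Errfi1 were not called, nor was Sgk1. Sham 4 was the highest sham library in 6 of the 12 and the lowest in 4.

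**Figure D4:**
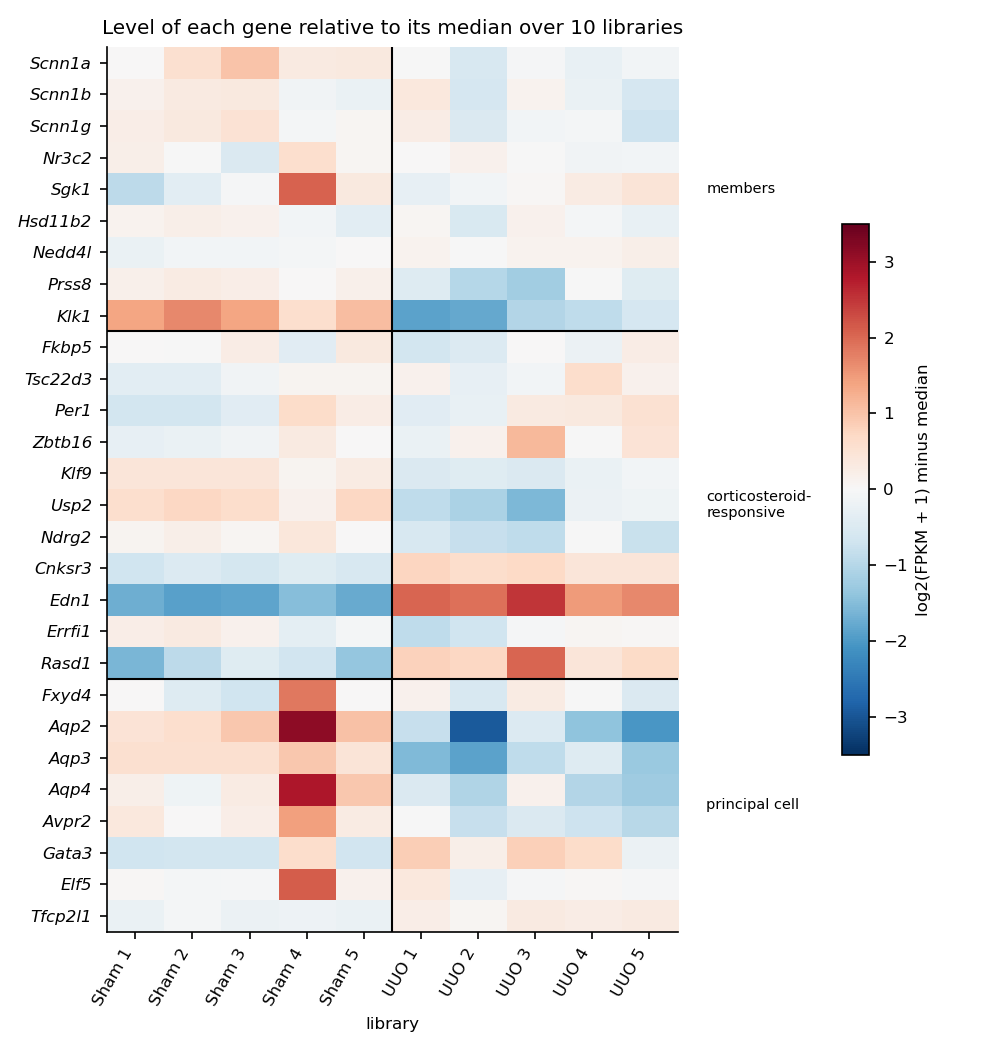
Level of each gene in each library relative to its median over the 10 libraries (colour, log2(FPKM + 1) minus the median) for the members, the other corticosteroid-responsive genes and the principal cell markers. Sgk1, Aqp2, Aqp4 and Elf5 are high in Sham 4. Edn1, Cnksr3 and Rasd1 are higher in all UUO libraries than in all sham libraries, and Usp2 and Klf9 are lower. Over all genes tested, 59.7% had ranges that did not overlap.

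Among 15 proteases and inhibitors that act on ENaC, 7 rose and 4 fell, with a median of 0.17. Besides Prss8 and Klk1, Furin, which cuts the alpha and gamma subunits during their maturation, fell from 26.4 ± 1.02 to 17.3 ± 1.496 FPKM, and Pcsk6, a related convertase, from 6.56 ± 4.79 to 1.28 ± 0.183 FPKM (SD, n = 5 each). Without Sham 4 the sham mean of Pcsk6 was 4.55 ± 1.86 FPKM (SD, n = 4). The protease inhibitor Serpine2 rose 13.0-fold from 1.38 ± 0.371 to 17.97 ± 7.73 FPKM, and Spint2 rose 2.33-fold from 47.4 ± 7.86 to 111 ± 8.37 FPKM (SD, n = 5 each). Spint1 was not called. St14, matriptase, an activator of prostasin, rose 2.40-fold from 7.15 ± 3.39 to 17.1 ± 3.07 FPKM (SD, n = 5 each). Without Sham 4 the sham mean of St14 was 5.65 ± 0.605 FPKM (SD, n = 4) and its rise 3.03-fold. Tmprss4, Plau, which encodes urokinase, and Ctsb rose as well, of which Plau (0.10) and Ctsb (0.14) were not called under median-of-ratios scaling.

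The ubiquitin list of 12 genes had 5 that rose and 3 that fell, with a median of 0.05. Ndfip1, an adaptor of the ligases, fell from 220 ± 9.29 to 153 ± 12.1 FPKM and Wwp1, a related ligase, from 45.7 ± 1.78 to 28.9 ± 3.71 FPKM (SD, n = 5 each), beside Usp2. Those that rose were Nedd4l, Wwp2, Uchl3, Ywhab and Ywhae, and under median-of-ratios scaling 0 of the 12 were higher and 8 were lower. Nedd4, the closest relative of Nedd4l, was not called, with 35.0 FPKM in Sham 4 and at most 12.0 FPKM in the other sham libraries. Without Sham 4 Nedd4 was called higher (0.61, limma adjusted p = 0.0451), which made 6 of the 12 higher.

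Of 14 genes of the SGK and WNK kinase pathway, 3 rose and 6 fell, with a median of -0.10. Mtor, the kinase of the complex that activates Sgk1, fell 3.89-fold from 32.3 ± 3.49 to 8.31 ± 1.71 FPKM (SD, n = 5 each, limma adjusted p = 4.24e-07). Its partners Rictor and Mlst8 rose as deposited, Mlst8 from 3.05 ± 0.833 to 5.47 ± 0.649 FPKM (SD, n = 5 each), but under quantile normalization Mlst8 was not called (0.14, limma adjusted p = 0.206) and Rictor was called lower (-0.23, limma adjusted p = 0.00766). Without Sham 4 the list had 4 higher and 6 lower, with a median of 0.038. Sgk2, a relative of Sgk1, fell from 47.7 ± 5.30 to 16.6 ± 8.47 FPKM (SD, n = 5 each), and Sgk3 was not called. Wnk1, Wnk4 and the ligase components Klhl3 and Cul3 fell, and the kinase Oxsr1 rose, though it was not called under median-of-ratios scaling (0.07).

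The other transporters of the aldosterone-sensitive nephron fell: 8 of 10 tested genes were lower and 0 higher, with a median of -1.03, and the same counts held under the median of ratios and equal sums. Without Sham 4 the exchanger gene Slc4a8 was called higher (0.32, limma adjusted p = 0.00115). The sodium-chloride cotransporter Slc12a3 fell 2.93-fold, the secretory potassium channel Kcnj1 2.12-fold, the chloride exchanger Slc26a4 3.76-fold, and the sodium pump subunit Atp1b1 1.72-fold. Of the ENaC subunits of the channel list 2 of 3 were called, none by more than 1.65-fold. With all libraries their folds of the mean were smaller than those of Slc12a3, Kcnj1, Slc26a4 and Atp1b1. Without Sham 4 this order did not hold, with a fall of 1.71-fold for Scnn1a and 1.69-fold for Atp1b1. The median log2 difference was -0.44 over the 3 ENaC subunits and -1.03 over the 10 tested transporters, and no test of the difference between the lists was run. The medians of the other lists depended on the scale: under the median of ratios they were -0.41 for the corticosteroid-responsive genes, -0.31 for the proteases and -0.37 for the ubiquitin genes, and with equal sums they were 0.064 for steroid handling and 0.085 for the kinases, all of the opposite sign to the deposited scale.

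**Figure D5:**
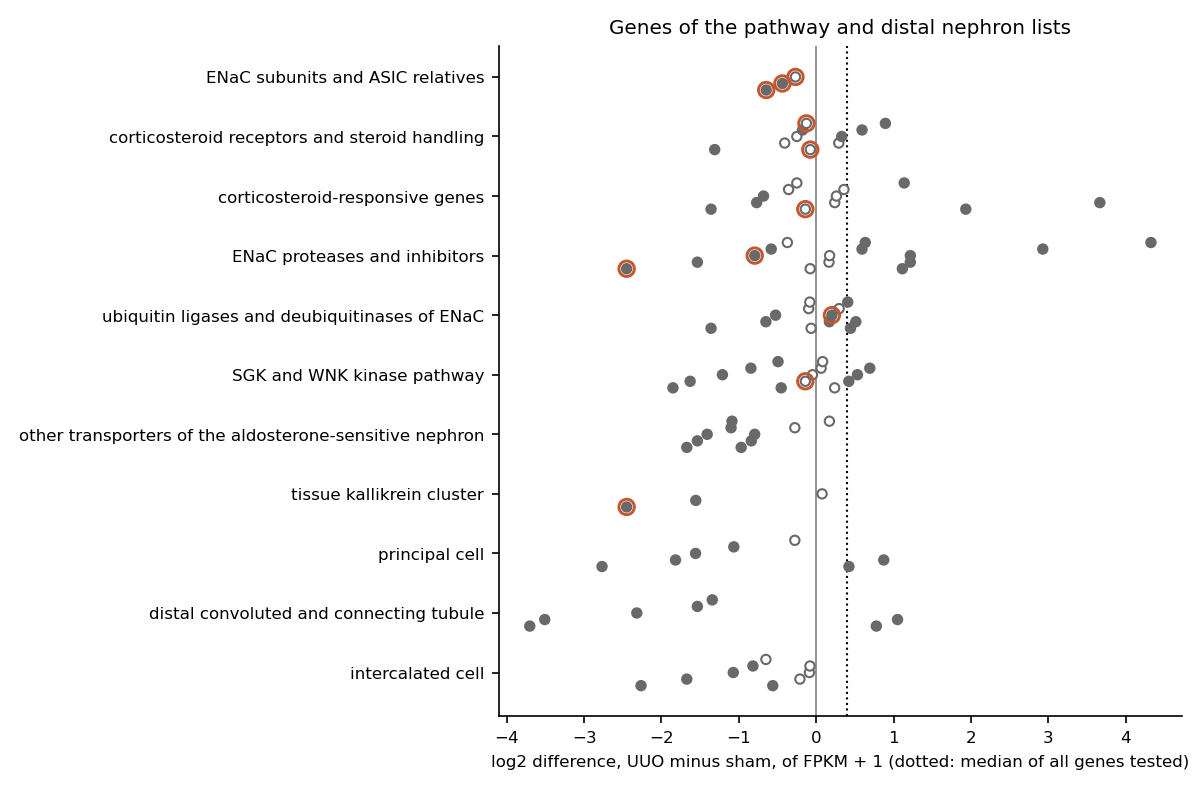
Log2 difference (UUO minus sham, horizontal axis) of the tested genes of each list (rows), filled where called at an adjusted p below 0.05, with members ringed in orange and the median of all genes tested as a dotted line at 0.40. The called transporters and 5 of 7 markers of the distal convoluted and connecting tubule lie left of the ENaC subunits.

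Markers of the principal cell, of the distal convoluted and connecting tubule and of the intercalated cell also differed between the groups. Of 7 principal cell markers tested 4 fell and 2 rose, with a median of -1.07, and their summed level ran from 182 to 623 FPKM in sham, at most 209 without Sham 4, and from 68.1 to 130 FPKM in UUO. The markers that rose were Gata3, from 5.27 ± 3.08 to 10.1 ± 3.18 FPKM (SD, n = 5 each), and Tfcp2l1, and neither was called under median-of-ratios scaling, where Tfcp2l1 was at -0.06. Of 7 markers of the distal convoluted and connecting tubule, where Klk1 is made, 5 fell and 2 rose, with a median of -1.54 and a summed level of 443.7 to 980 FPKM in sham against 115 to 227 in UUO. Calb1, a calcium-binding protein of these segments, fell 14.5-fold from 75.5 ± 24.9 to 5.197 ± 3.17 FPKM, and S100g 5.04-fold from 605 ± 164 to 120 ± 34.5 FPKM (SD, n = 5 each). The 2 that rose were Trpv5, from 3.60 ± 1.03 to 8.95 ± 4.23 FPKM (SD, n = 5 each), and Trpm6, from a mean of 2.15 to 4.44 FPKM. Of 9 intercalated cell markers 5 fell and 0 rose, with summed levels of 90.3 to 127 FPKM in sham and 54.7 to 96.6 in UUO. Under median-of-ratios scaling 9 of the 9 intercalated cell markers were lower and with quantile normalization 7, and under both the distal markers gave 5 lower and 0 higher. No principal cell, distal or intercalated marker was at 0 in a whole group.

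Markers of other cell types differed as well. All 8 proximal tubule markers fell, with a median of -1.92, and all 8 macrophage markers (median 3.89) and all 8 fibroblast markers (median 3.07) rose. The summed macrophage markers ran from 32.5 to 50.5 FPKM in sham and from 729 to 1358 in UUO. Of 6 urothelial markers 5 rose, and 6 without Sham 4, with summed levels of 1.57 to 45.7 FPKM in sham, the highest in Sham 4, and 30.8 to 288 FPKM in UUO. The thick ascending limb markers gave 4 lower and 1 higher of 6, and the lymphocyte markers 4 higher of 4 tested. Of 6 endothelial markers 3 were higher as deposited and 5 without Sham 4, and under median-of-ratios scaling 1 was higher and 1 lower. The part of these shifts in the levels of the 9 members was not tested.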

How the data were processed

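Total RNA of left kidneys went into 5 sham and 5 UUO stranded libraries for a NovaSeq instrument, per the labels' protocols. Per the submitters' processing notes cutadapt, HISAT2 and StringTie were used on GRCm38, with no version or annotation release named there. The authors deposited 1 gene and 1 transcript table, whose headers name no unit, and the values were read as FPKM from their decimals and column sums. With GENCODE release M21, a gene's deposited FPKM equalled the sum of its transcripts' FPKM times length over the merged exon length within 1% for most members and libraries, so levels set side by side across genes depend on the annotated length. For the 8 members whose transcripts matched M21, those listed held at least 88.4% of the gene value in each library, except for Nr3c2 in Sham 3, where they held 57.7%. Nedd4l transcripts were not all found in M21. Of 13920 gene IDs, 13901 matched M21 without their version. From each file 1 line with no entries was skipped, and 14 gene symbols shared by several genes were left out of naming.

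Groups followed the sample titles. Tests were run in R 4.3.3 with limma 3.58.1 (lmFit, eBayes with a trend) on log2(FPKM + 1) after the filter of 0.5 FPKM in 5 libraries, on 13202 genes and 21412 transcripts, with the Benjamini-Hochberg method. A share is the FPKM of 1 transcript over that of all listed transcripts of the gene, and shares were tested with limma after an arcsine square-root transformation, where the gene's sum reached 1 FPKM in all libraries and the mean share 5% in either group. Ratios and single members were tested by exact two-sided permutation over all relabellings in Python 3.11.15 (numpy 2.4.6, pandas 2.3.3, scipy 1.17.1, matplotlib 3.10.9). The limma script was checked on simulated data. Alternatives were other pseudocounts, filters and scalings, a replicate block and leaving out each library.

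The members and lists were chosen with earlier results of these data known, and no list was tested as a set. Besides the members, 30 genes were named by rule: from each list the called gene with the largest change, the called gene with the highest mean, and the largest change in the rarer direction. Some of these are given only within the counts of their list. Other genes named from the lists were chosen after their values were seen. The 3 nearest genes of each called member were taken by the smallest root-mean-square difference. Promoters are RefSeq windows of GRCm38.p6, found for 5 of 9 members. Sequences from chromosome 18 and some other results are not reported here.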

Additional observations from a re-analysis of the deposited data

Results flagged for a closer look

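The members, the other genes named by rule and the 5 ratios gave 86 groups of 5 libraries. In 10 of them 1 library was separated from the other 4 by a gap above 0.71 of the group's range (Dixon's criterion). Of these 10, 8 were in Sham 4. The criterion marks about 5% of groups of independent normal values. The groups examined share the same libraries, so their count does not test for an excess. Sgk1 was at 49.99 FPKM in Sham 4 and from 5.45 to 14.2 FPKM in the other sham libraries, and its ratio to Nedd4l was 6.77 there and at most 1.83 in the others. Aqp2 (399 FPKM in Sham 4, 62.1 to 90.6 in the others) and Gata3 (10.8 FPKM, 3.77 to 3.98 in the others), both on the principal cell marker list, were high in the same library. So were Slc4a1, the anion exchanger of intercalated cells and red blood cells (14.2 FPKM, 4.75 to 6.33 in the others), Lyz2, a macrophage lysozyme (13.1 FPKM, 6.52 to 7.56 in the others), and Cdh5, an endothelial cadherin (9.95 FPKM, 3.37 to 4.43 in the others). Usp2 was low there, at 28.9 FPKM against 39.3 to 43.3.

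Outside Sham 4, Atp6v1g3, a proton pump subunit of intercalated cells, was at 24.99 FPKM in UUO 3 and from 13.3 to 16.1 FPKM in the other UUO libraries. Lck, a T cell kinase, was at 5.32 FPKM in UUO 2 and from 2.01 to 2.84 FPKM in the others.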

How the results depend on the processing

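Across 18 alternatives Scnn1a, Prss8 and Klk1 kept their direction and their call, with log2 differences of -1.10 to -0.46, -1.29 to -0.60 and -2.95 to -2.25. Under median-of-ratios scaling 4594 genes were higher and 4443 lower (7727 and 2130 as deposited), 0 members higher and 8 lower, 10 pathway genes higher and 45 lower (21 and 28 as deposited), 7 member transcripts were called in place of 3, and Nedd4l (-0.24) and Hsp90ab1 (-0.17) reversed. Of all 21412 transcripts tested, 3932 were higher and 5125 lower on that scale, beside 6898 and 2608 as deposited. Under quantile normalization 3905 genes were higher and 4828 lower, 0 members higher and 7 lower, and Nedd4l was at -0.20. With equal sums Nr3c2 (0.060), Sgk1 (0.041) and Hsd11b2 (0.069) changed sign, as did Nr3c2 (0.050) and Sgk1 (0.32) without Sham 4, whose values without 1 library ran from -0.22 to 0.050 and from -0.42 to 0.32. Leaving out 1 library gave 7343 to 8011 genes higher and 1987 to 2162 lower, 0 to 1 members higher and 3 to 4 lower, 20 to 25 pathway genes higher and 26 to 29 lower, 3 to 5 member transcripts called (5 without UUO 1 or UUO 4), and log2 ratio differences of -0.25 to 0.21 for Hsd11b2 to Nr3c2 (above 0 without Sham 2, Sham 3 or UUO 2) and -0.63 to 0.13 for Sgk1 to Nedd4l. Scnn1g lost its call in 8 of 18 alternatives: equal sums and leaving out Sham 1, 2, 3 or 5 or UUO 2, 3 or 5. Nedd4l lost its call without Sham 1 (limma adjusted p = 0.0547) and in the replicate block. Same-numbered libraries did not deviate together (correlations of -0.26 to 0.15, 1 of 5 above 0.1), so the numbers were not taken as pairs; a fit with the replicate block called 7319 genes higher and 1953 lower, with 0 members higher (Nedd4l limma adjusted p = 0.0564). The cause of these shifts was not tested, and read depth is unknown, so no floor can be given for low levels such as those of Nr3c2.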

Other observations

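Relatives of the members that did not pass the filter are given by level only. Asic2, an acid-sensing channel of the ENaC family, was at most 0.0665 FPKM in sham and ran from 0.423 to 0.903 FPKM in UUO. Its groups did not overlap, beside 59.7% of the genes tested, and no floor can be given for such low levels. Asic2 was the only one of the 5 acid-sensing channel genes on the list that the gene table held. In the kallikrein cluster Klk1b3, Klk1b21, Klk1b22 and Klk1b27 stayed below 1.80 FPKM in every library. The principal cell factor Elf5 was at 4.43 FPKM in Sham 4 and at most 0.380 FPKM in the other sham libraries, and it ran from 0.0274 to 0.616 FPKM in UUO.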
